A study of Homo sapiens with 6 samples.

Results

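The genes of the unfolded protein response of the endoplasmic reticulum (ER) were examined in K562 cells, an established human erythroleukaemia line, carrying either a miR-543 vector or a control vector. The microRNA miR-543 is a short RNA that lowers mRNAs paired to its seed. The set is 10 genes given by name: HSPA5, HSP90B1, XBP1, ERN1, ATF6, DNAJB9, DNAJC3, HERPUD1, PDIA4 and SEL1L. Of these, 9 had a probe set with their symbol on the array, 1 each, among 21448 probe sets and 17687 named genes in all, while HSP90B1 had no probe set named for it and its mRNA was not analysed here. Total RNA was measured on 6 single-colour arrays, 3 of cells with the miR-543 vector (labelled as overexpressing miR-543) and 3 of cells with the control vector. Both groups are the same line, which the labels give as bone marrow and erythroleukemia, and no other treatment, and no agent that stresses the ER, is named for either. The labels give neither the kind of vector nor whether the cells were 1 clone or a pool. They also do not say that replicates came from separate cultures, and the p-values then cover only the spread of these arrays, possibly a technical one. No probe set was named for miR-543 itself (0 of 21448), so its level could not be checked here.

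The unfolded protein response matches the folding capacity of the ER to its load of unfinished proteins. Unfolded clients draw the chaperone HSPA5 away from sensors in the ER membrane. One of these, ERN1 (IRE1 alpha), then splices the mRNA of the transcription factor XBP1, another, ATF6, is cut in the Golgi to free a transcription factor, and EIF2AK3 (PERK) slows translation. XBP1 and ATF6 raise the genes of chaperones, of folding enzymes and of ER-associated degradation, which returns misfolded proteins to the cytosol for the proteasome. Array signals report total mRNA. They show neither the splicing of XBP1 nor the cutting of ATF6, and in bulk RNA fewer expressing cells and less RNA per cell cannot be told apart.

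The sequence of miR-543 (RefSeq, GRCh38.p14, chr14:101032033-101032054, plus strand) is shown because its vector is the named difference between the groups. The capitals mark its seed, bases 2 to 8, which no other mature microRNA of the RefSeq table shared (1 name with this seed).
hsa-miR-543: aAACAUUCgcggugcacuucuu

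Many UPR promoters carry the ER stress response element (ERSE), through which ATF6 acts with the factor NF-Y. It consists of CCAAT, a spacer of any 9 bases and CCACG. In a compact form, ERSE-II, ATTGG and CCACG stand 1 base apart. No motif searched overlaps another in the windows printed here. Both were searched on both strands of RefSeq promoter windows (GRCh38.p14, 250 bases before to 50 after each start). All 10 UPR genes had a window, and XBP1 and PDIA4 had another at an alternative annotated start, which held no motif. An exact ERSE lay in 0.0769% of all 35116 windows and 0.0916% of genes with a window, and HSPA5, HSP90B1 and XBP1 were 3 of these 25 genes. The ERSE-II lay in 0.0541% of windows and 0.0696% of genes, and HERPUD1 was 1 of its 19 genes. Both motifs were searched as known elements of UPR promoters, so these matches are a description and no test. The UPR element core TGACGTGG, searched likewise and sharing CCACG with both motifs when read on its other strand, lay in 0.729% of windows and in 0 of those of the 10 genes, and none of the 3 motifs lay in the windows of ERN1, ATF6, DNAJB9, DNAJC3, PDIA4 or SEL1L. No match says only that these exact letters are not in the window. The upstream parts of the 4 promoters that hold a motif are shown 5′ to 3′ along the gene, ending at the base before the start, with the fixed letters of each motif in capitals.
HSPA5 (chr9:125241344-125241493, minus strand): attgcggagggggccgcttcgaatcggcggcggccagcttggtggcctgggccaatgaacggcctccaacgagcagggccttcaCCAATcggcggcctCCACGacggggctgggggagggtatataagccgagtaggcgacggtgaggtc
HSP90B1 (chr12:103930211-103930409, plus strand): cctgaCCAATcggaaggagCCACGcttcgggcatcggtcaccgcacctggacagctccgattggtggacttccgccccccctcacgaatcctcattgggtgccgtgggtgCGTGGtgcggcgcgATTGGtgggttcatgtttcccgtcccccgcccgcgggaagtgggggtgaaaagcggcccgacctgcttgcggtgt
XBP1 (chr22:28800570-28800719, minus strand): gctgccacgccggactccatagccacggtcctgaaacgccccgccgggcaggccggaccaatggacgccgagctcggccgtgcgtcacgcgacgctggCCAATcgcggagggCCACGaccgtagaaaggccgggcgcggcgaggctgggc
HERPUD1 (chr16:56931992-56932141, plus strand): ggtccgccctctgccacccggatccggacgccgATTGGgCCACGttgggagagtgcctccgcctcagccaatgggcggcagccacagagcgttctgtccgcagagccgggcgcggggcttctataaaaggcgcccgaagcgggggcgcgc

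The ERSE of HSPA5 ran from 66 to 48 bases upstream of the start and that of XBP1 from 52 to 34. HSP90B1 had a pair, one 194 to 176 bases upstream along the gene and one 89 to 71 bases upstream on the opposite strand. The ERSE-II of HERPUD1 lay 117 to 107 bases upstream. Outside the 10 genes, 5 of the 19 ER chaperone and folding genes with a window held an ERSE, and 2 others of the 19, HYOU1 and SDF2L1, held an ERSE-II. The ERSE sites of the 5 genes are set below one another in the orientation from CCAAT to CCACG to show their 9-base spacers in lower case. The capitals mark the letters that the search required.
CALR (chr19:12938384-12938402, minus strand): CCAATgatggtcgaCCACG
CANX (chr5:179698778-179698796, plus strand): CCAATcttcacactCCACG
PDIA6 (chr2:10812853-10812871, minus strand): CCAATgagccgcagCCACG
CRELD2 (chr22:49918554-49918572, minus strand): CCAATccgagttcgCCACG
ERO1B (chr1:236282183-236282201, plus strand): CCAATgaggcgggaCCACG
Across the 24 distinct ERSE sites the spacer held between 3 and 8 G or C of 9. It held 8 in HSPA5, in XBP1 and in the site of HSP90B1 nearer the start. The site of CRELD2, a secreted ER stress protein, also lies upstream of ALG12, a mannosyltransferase of the ER, on the opposite strand.

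**Figure D1:**
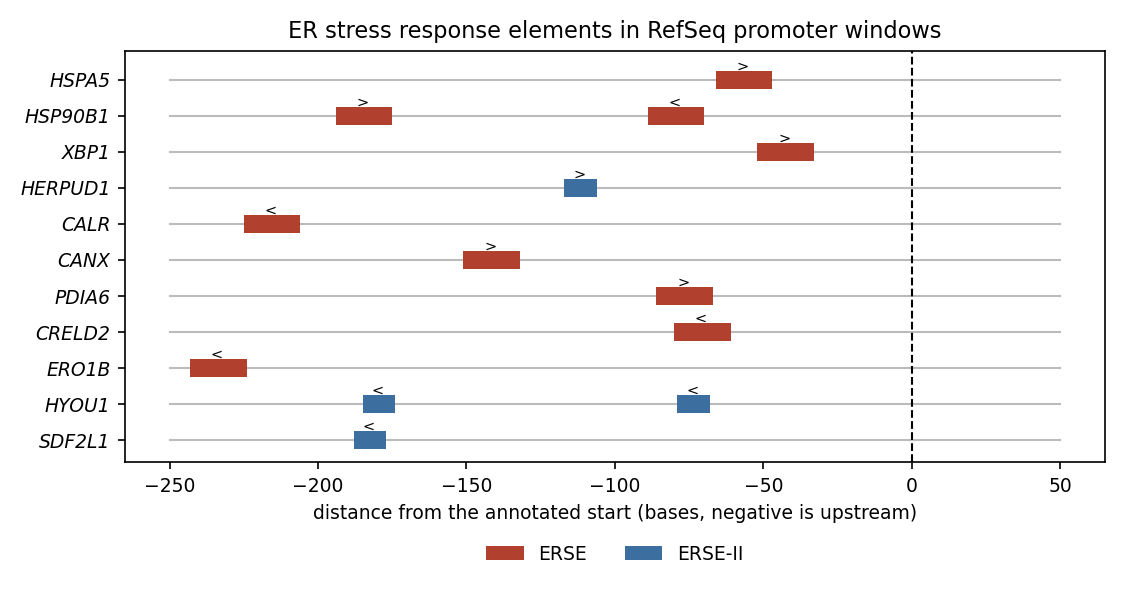
Distance in bases from the annotated start (dashed line, upstream negative) of ERSE sites (red) and ERSE-II sites (blue) in the promoter windows of 11 UPR and ER folding genes. Arrowheads show whether a site reads along the gene (>) or against it (<). All drawn sites lie upstream of the start, with those of HSPA5 and XBP1 nearest to it at 66 to 48 and 52 to 34 bases.

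On the arrays all 9 measured genes gave signals above the upper quartile of every array (9.61 to 9.66 on the log2 scale) on all 6 arrays. The comparison of the miR-543 vector with the control vector asked whether the mRNAs of the response differed between the cells. None of the 9 passed at an adjusted p under 0.05 (limma, Benjamini-Hochberg over all probe sets), against 0.569% of all probe sets (122 of 21448), and 2 of 9 had an unadjusted p under 0.05, against 10.6% of all. With limma's trend and robust settings the numbers for these genes were also 0 and 2. The median log2 change of the 9 genes, miR-543 vector minus control vector, was -0.10, and that of all probe sets was 0.013. For the 5341 bright probe sets, whose mean lay above the upper quartile of every array, it was -0.013. Of the 9 genes 7 had a change below 0, 1 above 0 and 1 of 0. Below 0 lay 47.1% of all probe sets and 52.5% of the bright ones. The arrays with the miR-543 vector lay wholly below the control arrays for 3 of the 9 genes, against 7.5% of all probe sets and 12% of the bright ones. They lay wholly above for 0 of 9, against 7.89%. On the same arrays the erythroid transcription factors KLF1 and TAL1 had log2 changes of 0.66 and 0.41 (limma adjusted p = 0.106 and 0.371). Both had all miR-543 arrays above the controls. Another, GATA1, had a log2 change of 0.01 with overlap (adjusted p = 0.991). None of these was called, and their part in the values of the UPR genes was not tested.

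ERN1, the kinase and RNase that senses unfolded proteins, had the difference farthest from 0. Its log2 signals were 10.42, 10.64 and 10.49 with the miR-543 vector, against 10.71, 11.10 and 11.06 with the control vector. The highest miR-543 array was 0.07 below the lowest control array. The means were 10.52 ± 0.112 with the miR-543 vector and 10.96 ± 0.215 with the control vector (SD, n = 3). This gave a log2 change of -0.44 with an SE of 0.155 and a 95% interval of -0.78 to -0.10. At 73.7% of the control level ERN1 did not pass (limma adjusted p = 0.359, unadjusted 0.0172).

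ATF6, the sensor that becomes a transcription factor, had signals of 12.30, 12.19 and 12.35 with the miR-543 vector, against 12.45, 12.36 and 12.33 with the control vector. The groups overlapped, since the highest miR-543 array lay above the lowest control array. Its log2 change was -0.10 (SE 0.133, 95% interval -0.40 to 0.20, limma adjusted p = 0.855), and it was -0.06 without miR-543 replicate 2. EIF2AK3, the remaining sensor, averaged 8.42 ± 0.142 with the miR-543 vector and 8.46 ± 0.07 with the control vector (SD, n = 3), a log2 change of -0.04. The change of ERN1 minus that of ATF6 was -0.34 (two-sided exact permutation p = 0.2) and minus that of EIF2AK3 it was -0.40 (exact permutation p = 0.1), while that of ATF6 minus that of EIF2AK3 was -0.06 (exact permutation p = 0.7). Adjusted over the 3 pairs the exact permutation p-values were 0.3, 0.3 and 0.7, and since 3 arrays against 3 cannot go below 0.1 these tests could not show that the sensors differed.

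XBP1, the transcription factor whose mRNA ERN1 splices and whose promoter carries an ERSE, had signals of 11.46, 11.48 and 11.34 with the miR-543 vector, against 11.55, 11.23 and 11.61 with the control vector. The control arrays spanned the miR-543 arrays on both sides. The log2 change was -0.04 (SE 0.15, 95% interval -0.37 to 0.30, limma adjusted p = 0.961). It was 0.01 without miR-543 replicate 3, 0.01 without control replicate 1 and 0.04 without control replicate 3, so its sign rested on single arrays.

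**Figure D2:**
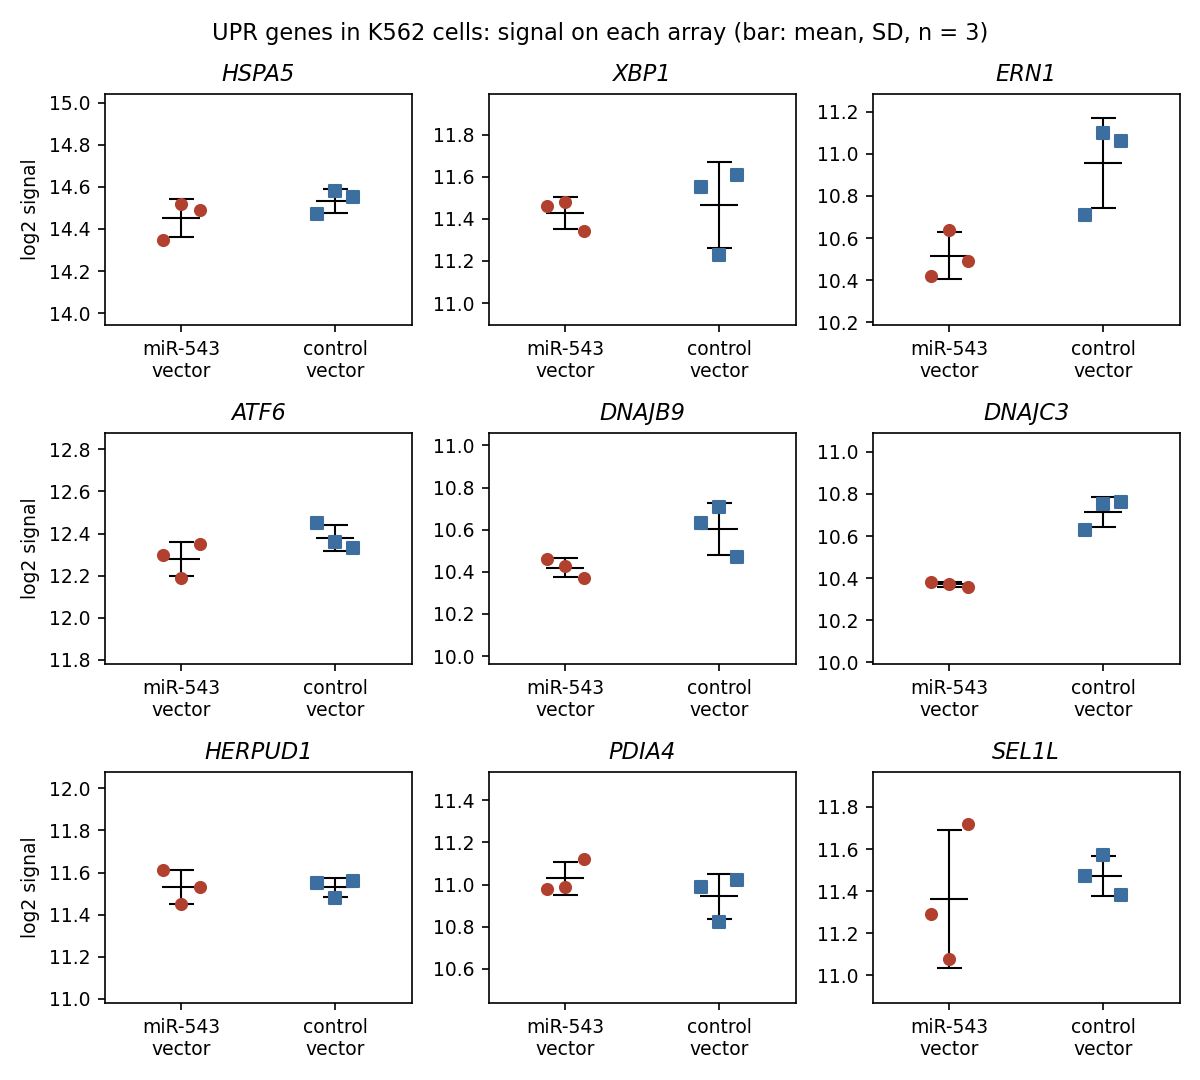
Log2 signal of the 9 measured UPR genes on each array, miR-543 vector (circles) left of control vector (squares), with mean and SD of 3 arrays. Each vertical axis spans the same 1.1 log2 units. ERN1, DNAJC3 and DNAJB9 show no overlap between the groups, and the other 6 genes do.

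Among the chaperones, HSPA5 (BiP), the abundant HSP70 of the ER lumen and the usual marker of the response, had signals of 14.35, 14.52 and 14.49 with the miR-543 vector. With the control vector they were 14.47, 14.58 and 14.55. The groups overlapped, and miR-543 replicate 1 was the lowest of the 6 arrays. HSPA5 had a log2 change of -0.08 (SE 0.134, limma adjusted p = 0.892). Its 95% interval ran from -0.38 to 0.22, that is from 77% to 116% of the control level. Without miR-543 replicate 1 the log2 change was -0.03.

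PDIA4 (ERp72), a protein disulfide isomerase that forms and rearranges disulfide bonds, was the 1 gene of the 9 with a change above 0. It had signals of 10.98, 10.99 and 11.12 with the miR-543 vector, against 10.99, 10.82 and 11.02 with the control vector. These ranges overlapped. PDIA4 had a log2 change of 0.09 (SE 0.137, 95% interval -0.22 to 0.39, limma adjusted p = 0.882). It was 0.03 without control replicate 2 and 0.04 without miR-543 replicate 3.

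The co-chaperones DNAJB9 and DNAJC3 carry a J domain, which stimulates the ATPase of HSPA5. DNAJC3 (p58IPK), which also inhibits EIF2AK3 and related kinases, had signals of 10.38, 10.37 and 10.36 with the miR-543 vector, against 10.63, 10.75 and 10.76 with the control vector. Every miR-543 array lay below every control array, with a gap of 0.25, and the miR-543 arrays lay within 0.02 of each other. DNAJC3 had a log2 change of -0.34 with an SE of 0.131 and a 95% interval of -0.63 to -0.05. At 78.8% of the control level it did not pass (limma adjusted p = 0.397, unadjusted 0.0249).

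The SD of DNAJC3 was 0.01 with the miR-543 vector and 0.072 with the control vector (n = 3 each). The median SD over all probe sets was 0.176 with the miR-543 vector and 0.18 with the control vector. Over the bright probe sets it was 0.119 with the miR-543 vector and 0.137 with the control vector. Limma draws so small a spread as that of DNAJC3 toward that of all probe sets.

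DNAJB9 (ERdj4), which holds ERN1 in an inactive complex with HSPA5, had signals of 10.46, 10.43 and 10.37 with the miR-543 vector. With the control vector they were 10.63, 10.71 and 10.47. The groups did not overlap, but the nearest arrays were 0.01 apart. For DNAJB9 the log2 change was -0.18 (SE 0.136, 95% interval -0.49 to 0.12, limma adjusted p = 0.702).

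ER-associated degradation was represented by HERPUD1 and SEL1L, both parts of the complex around the ubiquitin ligase SYVN1 (HRD1). HERPUD1, whose promoter holds the ERSE-II, had signals of 11.61, 11.45 and 11.53 with the miR-543 vector, against 11.55, 11.48 and 11.56 with the control vector. Both means were 11.53, so the log2 change was 0.00 (SE 0.132, 95% interval -0.29 to 0.29, limma adjusted p = 1). SEL1L, the adaptor that stabilises SYVN1, had signals of 11.29, 11.08 and 11.72 with the miR-543 vector, against 11.47, 11.57 and 11.38 with the control vector. The miR-543 arrays lay on both sides of the controls and spanned 0.64, the widest span within a group among the 9 genes. The log2 change of SEL1L was -0.11 (SE 0.177, 95% interval -0.50 to 0.28, limma adjusted p = 0.885), and it was 0.03 without miR-543 replicate 2.

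Of the 9 intervals 7 held 0, and those of ERN1 and DNAJC3 lay below 0. All 9 lay between -1 and 1, inside a 2-fold change in either direction. In 1 set of simulated arrays (21448 probe sets), spreads were drawn from limma's fit to all probe sets. Changes of 0.5, 1, 1.5 and 2 on the log2 scale were each given to 50 probe sets. There limma recovered 2% of those changed by 0.5 on the log2 scale (1 of 50) and 82% of those changed by 1 (41 of 50). At that spread and with that number of changes, a difference of the size of that of ERN1 would seldom be called with 3 arrays a group. Other numbers or sizes of changes would shift the cut for a call and were not simulated. The median SD of the 9 genes was smaller, 0.08 with the miR-543 vector and 0.095 with the control vector, against 0.176 and 0.18 for all probe sets. For the bright probe sets it was 0.119 with the miR-543 vector and 0.137 with the control vector. Recovery at the spread of the 9 genes was not simulated.

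**Figure D3:**
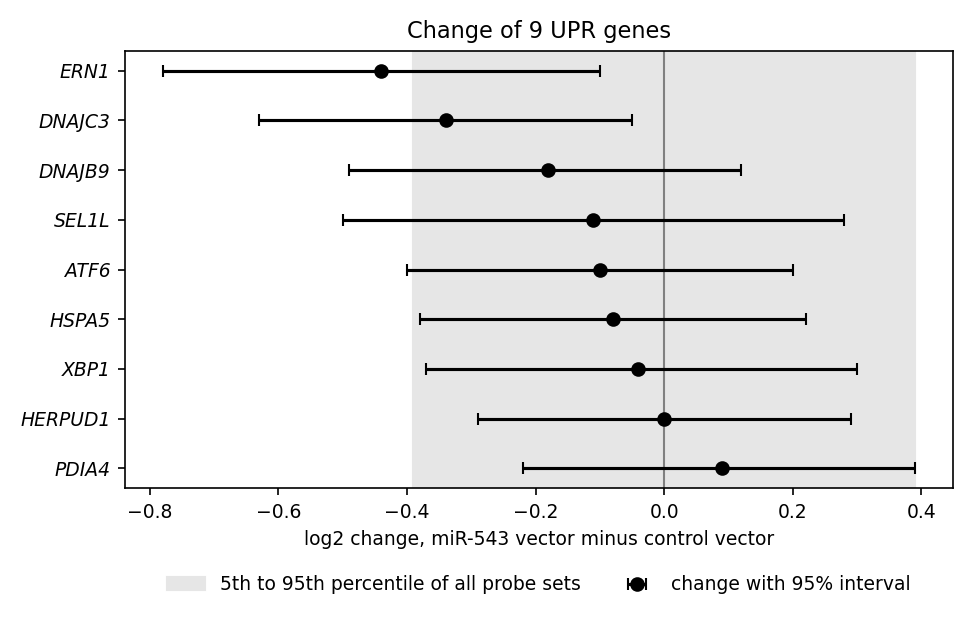
Log2 change (miR-543 vector minus control vector) of the 9 measured UPR genes with 95% intervals from limma. The grey band spans the 5th to 95th percentile of all probe sets, -0.39 to 0.39. ERN1 at -0.44 lies outside it and the other 8 inside.

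Further genes were taken from 6 lists compiled from general knowledge, 5 of the ER and the UPR and 1 of heat shock genes for comparison. Together they held 96 measured genes of 105. None was called (limma, adjusted p under 0.05, against 0.569% of all probe sets), and 5 of 96 had an unadjusted p under 0.05, against 10.6% of all. The median log2 change of the 96 was -0.043, with 59 genes below 0, 36 above 0 and 1 at 0. For all probe sets the share below 0 was 47.1%, and for the bright ones 52.5%. These shares, with 0.569% called and 10.6% at an unadjusted p under 0.05 (limma), stand beside the counts of each list below. Without the heat shock list, the 83 measured genes of the 5 ER and UPR lists had a median of -0.03. Of these 47 lay below 0, 35 above 0 and 1 at 0.

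Of 20 measured ER chaperones and folding enzymes 14 lay below 0 and 6 above (median -0.08), and 0 were called (1 at an unadjusted p under 0.05). ERO1B, an oxidase that recharges protein disulfide isomerase and whose promoter holds an ERSE, had signals of 7.39, 7.27 and 7.17 with the miR-543 vector, against 7.83, 8.07 and 8.12 with the control vector. The groups were separated by 0.44. ERO1B thus had a log2 change of -0.73 (95% interval -1.05 to -0.41, SE 0.145), which is 60.3% of its control level. It did not pass over all probe sets (limma adjusted p = 0.0682) and passed when only probe sets above the median of means were tested (adjusted p = 0.0247). Its adjusted p under the alternative fits lay between 0.0247 and 0.208. DNAJB11 (ERdj3), another J-domain partner of HSPA5, had a log2 change of -0.30 with no overlap (adjusted p = 0.472), and CRELD2 had one of 0.23 (adjusted p = 0.642), or 0.15 without control replicate 1.

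Among 12 measured sensors and transducers 7 lay above 0, 4 below and 1 at 0 (median 0.11), and 0 were called (0 at an unadjusted p under 0.05). MBTPS1, the site-1 protease that cuts ATF6 in the Golgi, had signals of 11.52, 11.79 and 11.62 with the miR-543 vector, against 11.31, 11.37 and 11.36 with the control vector. The miR-543 arrays lay wholly above the controls, with a log2 change of 0.30 (SE 0.138, limma adjusted p = 0.49). CREB3L2 and CREB3L3, membrane-bound transcription factors related to ATF6, had log2 changes of 0.22 and -0.16 (adjusted p = 0.672 and 0.738). The signals of CREB3L3 were 3.31 to 3.55, below the lower quartile of every array (3.98 to 4.03).

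Of 19 measured genes of ER-associated degradation 12 lay below 0 and 7 above (median -0.06), and 0 were called (1 at an unadjusted p under 0.05). AUP1, which recruits a ubiquitin-conjugating enzyme to the ER, had a log2 change of 0.32 (limma adjusted p = 0.456). The change was -0.25 for that enzyme, UBE2G2 (adjusted p = 0.549), and -0.32 for DERL2, a channel component (adjusted p = 0.602). DERL2 was at -0.17 without miR-543 replicate 3 and at -0.50 without miR-543 replicate 1. The arrays of AUP1 and UBE2G2 did not overlap between groups and those of DERL2 did.

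The list of ER translocation and export held 20 measured genes, 11 below 0 and 9 above (median -0.022), with 0 called (1 at an unadjusted p under 0.05). SEC61B, a subunit of the translocation channel, had signals of 12.55, 12.78 and 12.75 with the miR-543 vector, against 11.78, 12.22 and 12.61 with the control vector. Its log2 change was 0.49 (limma adjusted p = 0.429), with overlap, and the control arrays spanned 0.83. It was 0.28 without control replicate 1 and 0.69 without control replicate 3. SSR1, part of the translocon-associated complex, and SEC24D, a cargo adaptor of COPII vesicles, had log2 changes of -0.33 and 0.29 (adjusted p = 0.489 and 0.571). SEC24D was at 0.19 without miR-543 replicate 2.

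The PERK and ATF4 arm had 6 of its 12 measured genes below 0 and 6 above (median -0.065), with 0 called (2 at an unadjusted p under 0.05). NUPR1, a stress-induced chromatin protein, had signals of 9.52, 9.90 and 9.22 with the miR-543 vector, against 10.51, 10.12 and 10.24 with the control vector. The miR-543 arrays lay wholly below the controls. NUPR1 had a log2 change of -0.74 (SE 0.192) and was at 59.7% of its control level, with a limma adjusted p of 0.185. With limma's trend and robust settings it passed (adjusted p = 0.0455), and under all alternative fits the adjusted p lay between 0.0455 and 0.536. TRIB3, a pseudokinase induced by ATF4, had a log2 change of 0.33 and DDIT3 (CHOP), the death-linked transcription factor of the same arm, one of -0.22 (adjusted p = 0.466 and 0.636).

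For comparison, 12 of 13 measured heat shock genes lay below 0 and 1 above (median -0.157), with 0 called (limma, 0 at an unadjusted p under 0.05). Below 0 lay 47.1% of all probe sets and 52.5% of the bright ones, as given above. The list was meant as cytosolic, but HSPD1 (log2 change -0.16) and HSPE1 (0.07, the 1 above 0) are mitochondrial. HSPA4, a nucleotide exchange factor for HSP70, had a log2 change of -0.26, the cytosolic chaperone HSP90AA1 one of -0.29 and the heat shock transcription factor HSF1 one of -0.27 (adjusted p = 0.539, 0.561 and 0.658). The arrays of HSPA4 did not overlap between the groups. Single arrays carried much of the other values: HSP90AA1 was at -0.18 without control replicate 1, and HSF1 was at -0.12 without miR-543 replicate 2, -0.17 without control replicate 1 and -0.41 without miR-543 replicate 1. Whether any list differed from another was not tested.

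**Figure D4:**
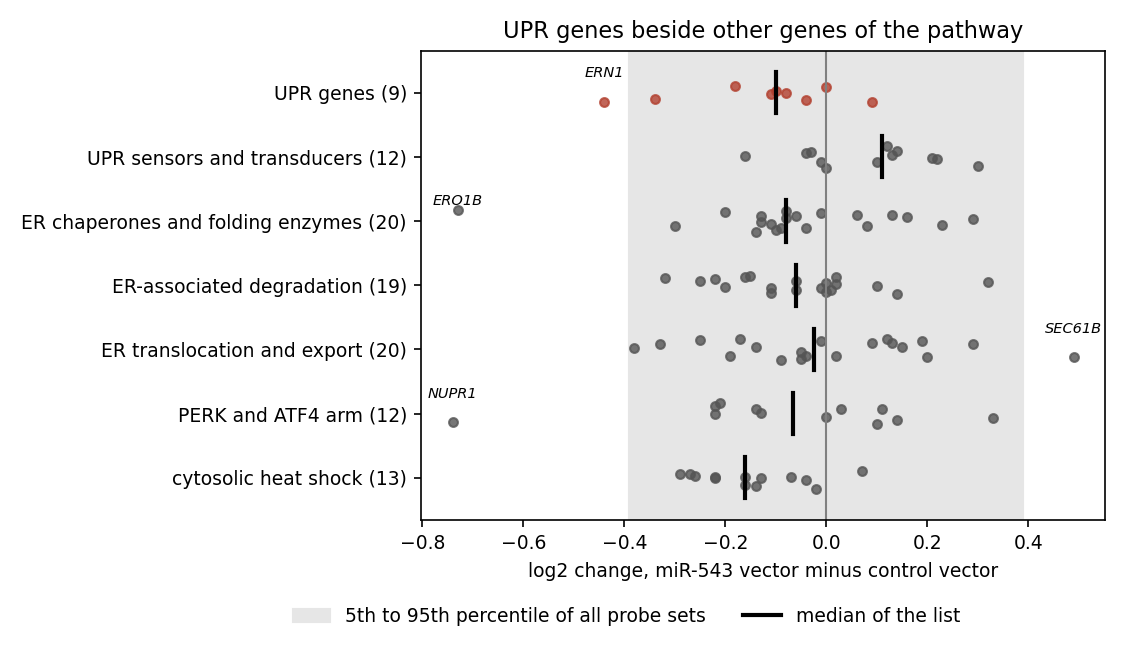
Log2 change (miR-543 vector minus control vector) of each measured gene of the UPR (red) and of 6 other lists (grey points, number of genes in brackets), with list medians as black bars. The grey band is the 5th to 95th percentile of all probe sets, -0.39 to 0.39. ERN1, ERO1B, NUPR1 and SEC61B lie outside it.

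Genes grouped by promoter letters were a further description. Of the 25 genes with an ERSE 20 had a probe set, 2 of them UPR genes described above (HSPA5 and XBP1). The other 18 had a median log2 change of -0.062, with 11 below 0 and 7 above, and 0 were called, against 0.589% of all 14250 measured genes with a window. One of the 18 (5.56%), ERO1B, had an unadjusted p under 0.05, against 10.6% of those genes. Among the chaperones with an ERSE, CALR and CANX, lectins that hold glycoproteins during folding, had log2 changes of -0.11 and -0.13, and the disulfide isomerase PDIA6 had one of 0.06. SERP1 and EIF2A, which share 1 ERSE between divergent starts, had log2 changes of -0.01 and -0.29. The 3 FRG2 genes in this group are close paralogs whose probes may read each other's RNA. These 3, GLRA2, SYNPO and NLRP4 had group means of 2.71 to 4.59, below the median of every array (5.99 to 6.01). All of these dim genes but NLRP4 had a change below 0, so the count below 0 rests partly on weak signals.

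**Figure D5:**
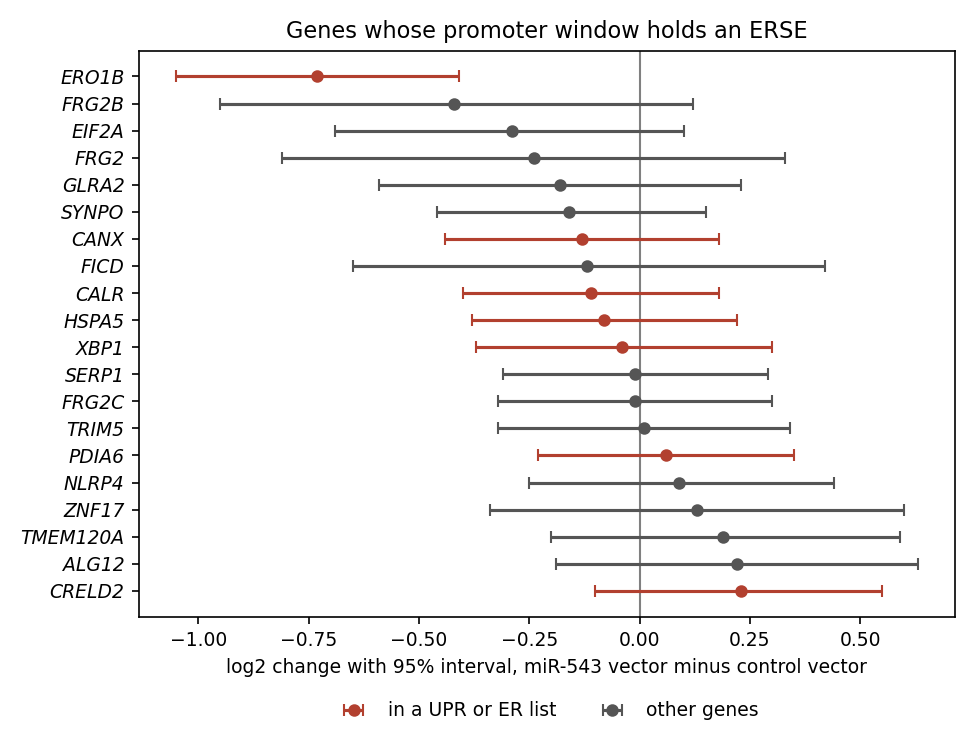
Log2 change (miR-543 vector minus control vector) with 95% intervals for the 20 measured genes with an ERSE in the promoter window, red for genes of the UPR and ER lists. All intervals except that of ERO1B (-1.05 to -0.41) hold 0.

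Array profiles were also set against that of HSPA5, after subtracting each gene's own mean and dividing by its own SD over the 6 arrays. The nearest of 9188 named probe sets above the median of means were EXO1, a DNA exonuclease, at a root mean square distance of 0.192 SD units, PSMC3, an ATPase of the proteasome, at 0.243, and BNIP1, a SNARE protein of the ER, at 0.244. TLCD1 and POP5, a subunit of RNase P, followed at 0.248 and 0.283. These genes shared with HSPA5 the lowest signal on miR-543 replicate 1. Of the other UPR genes ERN1 was nearest to HSPA5 (0.553, rank 115) and HERPUD1 farthest (1.692, rank 8888). With 6 arrays and 9188 candidates such likeness is a description only.

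As checks on the samples, array medians lay between 5.99 and 6.01, and Pearson's r across probe sets, which are not independent, was 0.9945 to 0.9957 within groups and 0.9931 to 0.9951 between groups. Of 10 erythroid and K562 markers 7 had a named probe set. On all 6 arrays 4 of these (HBZ, HBE1, TFRC and GATA1) lay above the highest upper quartile of any array. The summed signal of all 7 was 17.57 to 17.63 on the log2 scale with the miR-543 vector and 17.43 to 17.59 with the control vector. Of the 7 markers 6 had a log2 change above 0 (median 0.143), against 11217 of all 21448 probe sets. By limma 0 were called, against 0.569% of all, and 2 had an unadjusted p under 0.05, against 10.6%. The values of KLF1 and TAL1 are given above. The 10 epithelial and kidney line markers, 4 of them above the upper quartile (EPCAM, KRT8, KRT18 and KRT19), summed to 15.89 to 15.93 with the miR-543 vector and 15.85 to 15.91 with the control vector. The 8 plasma cell markers, a cell type with a strong unfolded protein response, summed to 8.21 to 8.51 with the miR-543 vector and 8.18 to 8.28 with the control vector, and 0 lay above the upper quartile. The part of these markers in the results above was not tested.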

How the data were processed

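Expression was measured in K562 cells on 6 arrays, grouped by sample title. The values are log2 signals per probe set as deposited by the authors, to 2 decimals. Per the submitters' processing notes they were made with Transcriptome Analysis Console 4.0 and RMA, a method of background correction, array normalization and probe summary. The variant of RMA and the annotation release are not given in the sources used here, and no detection calls were used. Symbols came from the platform annotation for 17709 probe sets (several symbols for 0, none here for 3739), and all 17709 identifiers matched the RefSeq gene table of GRCh38.p14, with 0 symbols updated. Columns of other samples numbered 0.

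The 2 groups were fitted in R 4.3.3 with limma 3.58.1 (lmFit and eBayes on all 21448 probe sets, without a block or a filter). A change is the miR-543 vector's mean minus that of the control vector, adjusted p-values are Benjamini-Hochberg over all probe sets, and p-values are two-sided. Permutation tests used scipy 1.17.1. The number of arrays limits the precision. The main limma fit was tested on simulated arrays and the motif search on random sequences with planted motifs. The other steps had no such test. The UPR genes, the 6 other gene lists and the 3 marker lists were chosen with earlier results of these data known. All UPR genes were named, and from each of the 6 other lists every call or else the 3 smallest unadjusted p. The 5 profiles nearest to HSPA5 were also named. Promoter motifs and the genes named for them were chosen after values had been seen. Alternatives were limma-trend with a robust prior, a filter on dim probe sets, equal medians, quantile normalization, a replicate block and leaving out each array.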

Additional observations from a re-analysis of the deposited data

How the results depend on the processing

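Over 11 alternative fits none of the 9 UPR genes was called, and 95 of their 99 alternative values kept direction or, for HERPUD1, which had none, stayed uncalled. The other 4 turned in sign. Leaving out each array, XBP1 ranged from -0.15 to 0.04 and SEL1L from -0.29 to 0.03. POP5, not a UPR gene but a profile neighbour of HSPA5, ranged from -0.18 to 0.05. ERN1 ranged from -0.56 to -0.37 and DNAJC3 from -0.38 to -0.32, with adjusted p-values of 0.178 to 0.543 and 0.19 to 0.626 over all alternatives. The median of the UPR genes lay between -0.14 and -0.06. Calls over all probe sets numbered 122, and 252 with limma's trend and robust settings, 71 with the replicate block and 34 to 59 with 1 array left out. In the lists of other pathway genes, ER chaperones and folding enzymes had 1 call (ERO1B) after the filter on dim probe sets, and the PERK and ATF4 arm had 1 (NUPR1) with limma's trend and robust settings. The cause was not tested, except that the filter tests fewer probe sets (10724). CREB3L3 was removed by that filter. Replicate numbers are shared by the groups, but deviations from group means correlated at 0.095, -0.053 and 0.018 for the same number, so the numbers were not taken to pair the arrays. The replicate block changed no call of a UPR gene (0 of 9). Each UPR gene had 1 probe set, so averaging probe sets gave no other value. Signal over background was not tested.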

Other observations

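Genes with the compact element ERSE-II in their promoter window were measured in 15 cases. Leaving out HERPUD1, the other 14 had a median log2 change of 0.018 (miR-543 vector minus control vector), 7 above 0 and 6 below. None was called by limma at an adjusted p under 0.05, against 0.589% of all measured genes with a window. At an unadjusted p under 0.05 there were 0, against 10.6% of those genes. Genes with the core TGACGTGG, to which XBP1 binds, were measured in 155 cases, with a median of -0.01, 83 below 0 and 70 above. One was called, SLC7A8, an amino acid transporter that was higher with the miR-543 vector (0.645% of the 155). In the group of 14 and the group of 155 the genes were chosen by promoter letters after values had been seen, and no list was tested against the rest.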
